A study of Mus musculus with 6 samples.

Results

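Chemosensory receptors are the proteins with which mice smell and taste, and liver is not expected to use them. Their probe sets were taken as a reference for what these arrays read where little or no transcript is present. Members were the probe sets whose platform annotation names 1 gene, with a symbol beginning Olfr, Vmn1r, Vmn2r, Tas1r, Tas2r or Taar followed by a number. This gave 842 probe sets for 841 genes, or 5.61% of the 14996 probe sets that name 1 gene, out of 23332 in all. They comprise 719 odorant receptors (Olfr), 81 type 1 vomeronasal receptors (Vmn1r), 31 bitter taste receptors (Tas2r), 8 trace amine-associated receptors (Taar) and 3 sweet and umami taste receptors (Tas1r). The rule found 0 type 2 vomeronasal receptors (Vmn2r). A further 138 probe sets name several genes that are all receptors, and they were kept apart.

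RNA from whole liver was read with 1 array for each of 6 mice, all on a high-fat diet that had lasted 8 weeks. In 3 mice Klf6, a zinc finger transcription factor, was knocked down in hepatocytes (DeltaHepKlf6), and 3 wild-type littermates on the same diet served as Control. Per the labels, DeltaHepKlf6 mice had improved glucose tolerance and less steatosis, and Control mice had glucose intolerance and marked steatosis. The sources used here do not give the construct that drives the knockdown, nor the strain, age or sex of the mice. Other liver cells were not targeted, and in whole tissue fewer cells of a type and less RNA per cell cannot be told apart.

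Each olfactory neuron expresses 1 odorant receptor gene out of a very large family, whose genes lie in clusters and mostly have their coding sequence in a single exon. Odorant receptors act through the G protein subunit Gnal, the cyclase Adcy3 and a cyclic nucleotide-gated channel, and most Taar genes serve the same tissue as amine detectors. Vomeronasal receptors detect pheromones, whereas the Tas1r and Tas2r proteins signal in taste cells through Plcb2 and Trpm5. Some of these receptors have been described in other organs of the mouse.

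The gene models of the members are shown at their start, because they are the ground on which close relatives can be told apart. RefSeq (GRCm38.p6) gave a window around the gene start for 708 receptor genes. In 521 of them, or 73.6%, the model begins with the letters ATG, against 159 of 11161 other single-gene models, or 1.42%. Most of these models thus begin at the start codon, so the bases before it are not a mapped promoter, and no motif was searched. Windows of 30 bases before and 50 bases from the start follow for 8 genes that were chosen after their values were seen. They are Taar6, the brightest member, Olfr1411 and Olfr1410, bright neighbours, with their dimmer neighbour Olfr1412, Olfr484 and Olfr493, alike in sequence and unlike in level, and Olfr1394 and Vmn1r52, the members lowest and highest in DeltaHepKlf6 relative to Control. Capitals mark the ATG.
Taar6, chr10:23985597-23985676, minus strand: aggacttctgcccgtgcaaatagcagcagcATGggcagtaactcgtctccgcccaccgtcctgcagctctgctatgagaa
Olfr1411, chr1:92596491-92596570, plus strand: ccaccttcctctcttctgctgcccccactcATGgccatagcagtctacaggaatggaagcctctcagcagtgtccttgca
Olfr1410, chr1:92607809-92607888, plus strand: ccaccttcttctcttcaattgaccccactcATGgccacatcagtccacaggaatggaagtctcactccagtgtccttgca
Olfr1412, chr1:92588302-92588381, plus strand: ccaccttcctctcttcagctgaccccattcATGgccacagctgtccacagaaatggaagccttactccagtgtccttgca
Olfr484, chr7:108125212-108125291, minus strand: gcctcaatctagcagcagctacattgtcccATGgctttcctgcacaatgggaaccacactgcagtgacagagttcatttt
Olfr493, chr7:108346930-108347009, minus strand: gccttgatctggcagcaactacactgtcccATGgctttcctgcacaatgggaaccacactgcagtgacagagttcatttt
Olfr1394, chr11:49159986-49160065, plus strand: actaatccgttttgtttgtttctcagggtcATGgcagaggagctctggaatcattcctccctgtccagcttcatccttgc
Vmn1r52, chr6:90178686-90178765, plus strand: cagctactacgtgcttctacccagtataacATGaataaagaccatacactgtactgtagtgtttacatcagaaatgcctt

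On every array the receptors were dim beside the other single-gene probe sets. Their median level was 3.09, 3.26 and 3.20 in DeltaHepKlf6 1, 2 and 3, against 3.18, 3.09 and 3.12 in Control 1, 2 and 3, all on the log2 scale of the deposited values. The other single-gene probe sets had medians of 5.91, 6.04 and 5.80 in DeltaHepKlf6 1, 2 and 3, and of 6.08, 5.96 and 5.93 in Control 1, 2 and 3. The distance between the receptor median and that of the other sets was narrowest in DeltaHepKlf6 3, at 2.61, and widest in Control 1, at 2.90. DeltaHepKlf6 3 also had the smallest standard deviation over all of its probe sets, 2.22, and Control 1 the largest, 2.40. Averaged over arrays, the receptor medians were 3.18 ± 0.09 in DeltaHepKlf6 and 3.13 ± 0.05 in Control (SD, n = 3 each).

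Receptors were far from uniform among themselves. Over the means of the 6 arrays their 5th percentile was 1.81, the median 3.13, the 95th percentile 5.33 and the maximum 7.30, and 378 of 842 had a mean below 3. The 7317 probe sets without a gene name reached as low, with a 5th percentile of 1.81 too. The standard deviation across receptors lay between 1.17 and 1.22 in every array. The order of the receptors was shared by the arrays. Pearson's r across the receptors, given as a description over 842 probe sets that share platform and normalization, was 0.806 to 0.826 between DeltaHepKlf6 arrays, 0.823 to 0.853 between Control arrays and 0.797 to 0.858 between a DeltaHepKlf6 and a Control array. For the other single-gene sets it was 0.976 to 0.990 over all pairs of arrays, within and between groups.

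**Figure D1:**
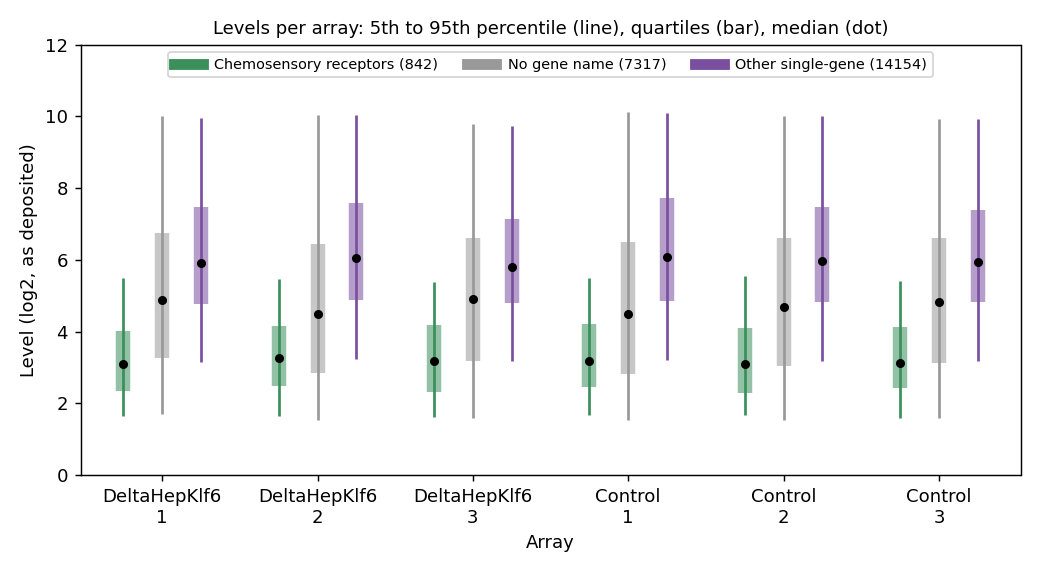
Levels of 842 chemosensory receptor, 7317 unnamed and 14154 other single-gene probe sets (log2, y axis) in each array (x axis, DeltaHepKlf6 left of Control); lines span the 5th to 95th percentile, bars the quartiles, and dots are medians. The receptor medians stay between 3.09 and 3.26, and those of the other single-gene sets between 5.80 and 6.08.

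Family medians were spread over the lower part of the scale. Over the means of the 6 arrays the median was 2.62 for Vmn1r, 3.16 for Olfr, 3.27 for Tas2r, 4.41 for Taar and 5.0 for Tas1r, where only 8 and 3 probe sets stand behind the last 2 values. Tas1r2, the sweet taste subunit, was 5.57, 5.07 and 5.37 in DeltaHepKlf6 1, 2 and 3 and 5.31, 5.36 and 5.11 in Control 1, 2 and 3. Its partner Tas1r3, shared by sweet and umami receptors, was 5.03, 5.11 and 4.91 in DeltaHepKlf6 and 4.93, 4.76 and 5.24 in Control, and the umami subunit Tas1r1 lay between 4.14 and 4.67 in DeltaHepKlf6 and between 4.43 and 4.49 in Control. The groups overlapped for all 3. Probe sets differ in their affinity, so these values do not rank the genes by transcript amount. The brightest bitter receptor was Tas2r138, with 5.66 ± 0.26 in DeltaHepKlf6 and 5.77 ± 0.65 in Control, and the dimmest was Tas2r120, with 2.10 ± 0.40 in DeltaHepKlf6 and 2.05 ± 0.15 in Control (SD, n = 3 each). Among vomeronasal receptors Vmn1r233 was brightest, with a mean over the 6 arrays of 5.66, and Vmn1r205 dimmest, with 1.44. The lowest member of all was Olfr117, at 1.28 to 1.39 in DeltaHepKlf6 and 1.45 to 1.48 in Control.

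Bright exceptions were few. A member was called bright where it exceeded the median of the other single-gene probe sets on each of the 6 arrays, and 5 of 842 did so, namely Taar6, Olfr1411, Olfr1410, Olfr796 and Olfr71. In contrast, 802 members exceeded that median on no array. No member exceeded the 75th percentile of the other sets on all 6 arrays, and 2 members did so on at least 1 array. Taar6, an amine receptor of the olfactory epithelium, was 6.86, 7.36 and 7.50 in DeltaHepKlf6 1, 2 and 3 and 7.49, 7.35 and 7.26 in Control 1, 2 and 3. Its mean of 7.30 was above 73.1% of the other single-gene sets, and the groups overlapped. The next Taar gene, Taar5, a trimethylamine receptor and the neighbour of Taar6, had a mean of 5.86, and the 6 remaining Taar members had means between 2.09 and 4.61.

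Olfr1411 and Olfr1410, adjacent odorant receptor genes, were the next in rank. Olfr1411 was 6.53, 7.23 and 6.88 in DeltaHepKlf6 1, 2 and 3 and 6.54, 6.77 and 7.03 in Control 1, 2 and 3. Olfr1410 was 7.09, 6.28 and 7.11 in DeltaHepKlf6 1, 2 and 3 and 6.46, 6.63 and 7.20 in Control 1, 2 and 3. They did not vary together, since DeltaHepKlf6 2 was the highest array for Olfr1411 and the lowest for Olfr1410. Olfr71 was the steadiest bright member, at 6.34, 6.20 and 6.31 in DeltaHepKlf6 and 6.22, 6.16 and 6.11 in Control. Olfr796 was 6.48 ± 0.32 in DeltaHepKlf6 and 6.39 ± 0.07 in Control (SD, n = 3 each). None of the 5 had separate groups, and their differences of means, DeltaHepKlf6 minus Control, lay between -0.13 and 0.12. The other places among the 12 brightest went to Olfr635, Olfr642, Olfr666, Olfr898, Olfr67, Olfr1226 and Olfr556, with means between 6.06 and 6.38, which crossed the median of the other sets on 3 to 5 arrays.

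**Figure D2:**
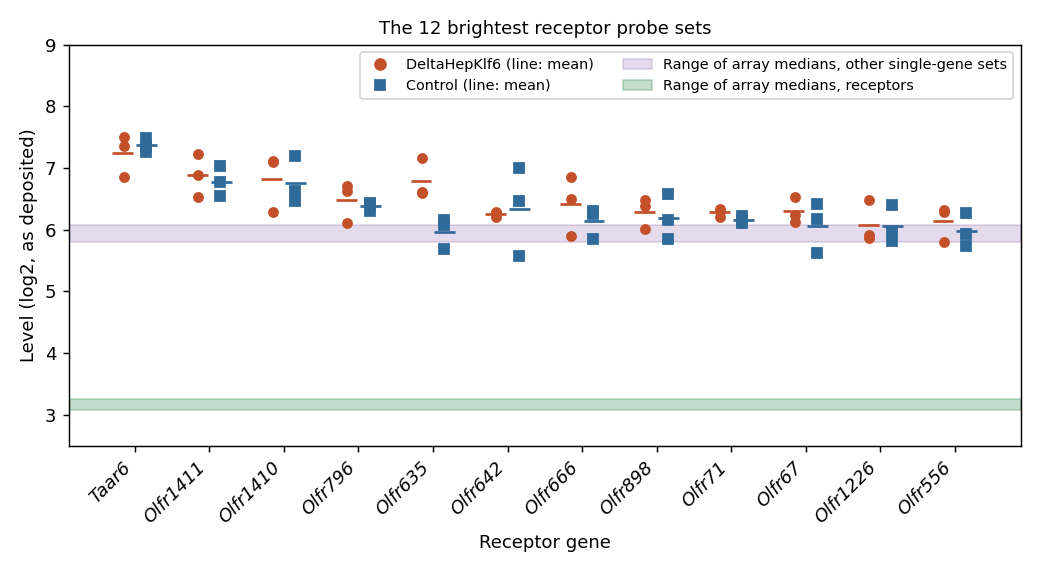
Levels (log2, y axis) of the 12 brightest receptor probe sets (x axis) in DeltaHepKlf6 (circles, left) and Control (squares, right), 3 mice each, with group means as short lines; bands span the array medians of the receptors and of the other single-gene sets. Taar6 is highest with a mean of 7.30, and Olfr635 is the 1 gene of these 12 whose groups do not overlap.

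Close relatives in sequence were not always close in level. Over the first 50 bases from the start, Olfr1411 shared 43 with Olfr1410 and 42 with their neighbour Olfr1412, and Olfr1410 shared 45 with Olfr1412. Yet Olfr1412 had a mean of 4.03, against 6.83 and 6.80 for the others. Olfr484 and Olfr493 had the same 50 of 50 bases, and their levels were 5.62 to 6.07 and 1.46 to 2.03 over the 6 arrays. Among the 521 models that begin with ATG, 96 pairs of genes shared at least 90% of these bases. Their median distance in level was 0.93, against 1.07 over all 135460 pairs. The sources used here do not say which part of a gene its probe set reads. Genes next to each other among protein-coding genes resembled each other weakly in level, with a Pearson's r of 0.251 over 526 adjacent receptor pairs, and not in their difference between the groups, with 0.008 (both given as descriptions, since a gene can stand in 2 pairs). Chromosome 7 held 26 of the 73 members with a mean of at least 5 and 188 of the 842 members.

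Limma called 0 of 842 receptors at a Benjamini-Hochberg adjusted p under 0.05, where the background over all 23332 probe sets was 0%. The smallest adjusted p of a receptor was 0.998 (limma). At an unadjusted p under 0.05 limma counted 51 receptors, which is 6.06% of them against a background of 3.21% over all probe sets. Of the 51, 27 were higher in DeltaHepKlf6 (background 1.61%) and 24 were lower (background 1.61%). Among the other single-gene sets the share at such a p was 1.43%. With DeltaHepKlf6 2 left out, limma counted 59 of 842 receptors and 1797 of all 23332 sets. The receptors' share was then not above the background. The median difference of the receptors was 0.005, against -0.05 for the other single-gene sets, with 425 receptors above 0 and 413 below. Fitted standard errors had a median of 0.28 for receptors and 0.18 for the other single-gene sets.

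Apparent genotype differences were common among the receptors. A difference of means of at least 1.5-fold with no overlap between the 3 and 3 values was seen in 44 of 842, or 5.23%, against a background of 2.14% over all probe sets and 0.572% among the other single-gene sets. Of these, 25 were higher in DeltaHepKlf6 (background 1.19%) and 19 were lower (background 0.951%). Receptors were thus 44 of the 125 single-gene probe sets that met this criterion, or 35.2%, while they were 5.61% of the single-gene sets. They made up 25 of 53 on the higher side and 19 of 72 on the lower side. With no requirement on the fold, 75 receptors or 8.91% had no overlap, against a background of 6.72% and 6.17% among the other single-gene sets. Of the 75, 42 were higher in DeltaHepKlf6 (background 3.05%) and 33 were lower (background 3.67%). In size, 110 receptors or 13.1% differed by at least 1.5-fold whether or not the groups overlapped, against 1.75% of the other single-gene sets. The excess was therefore larger for the fold than for the separation of the groups, and whether these shares differ beyond chance was not tested.

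By family, the 44 comprised 40 of 719 odorant and 4 of 81 vomeronasal receptors, with 0 of 31 bitter, 0 of 8 trace amine-associated and 0 of 3 sweet and umami receptors. The 138 probe sets that name several receptors had a like share, 7 or 5.07%, and the 7317 without a gene name here had 357 or 4.88%. The 44 lay at levels with a median of 2.81, 25 of them had a mean below 3, and 0 of them were among the 5 bright members. Just inside the limit stood Olfr1032, with a difference of -0.59, and Olfr780, with 0.60. Just outside stood Olfr229 and Olfr769, with 0.58 and 0.56.

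**Figure D3:**
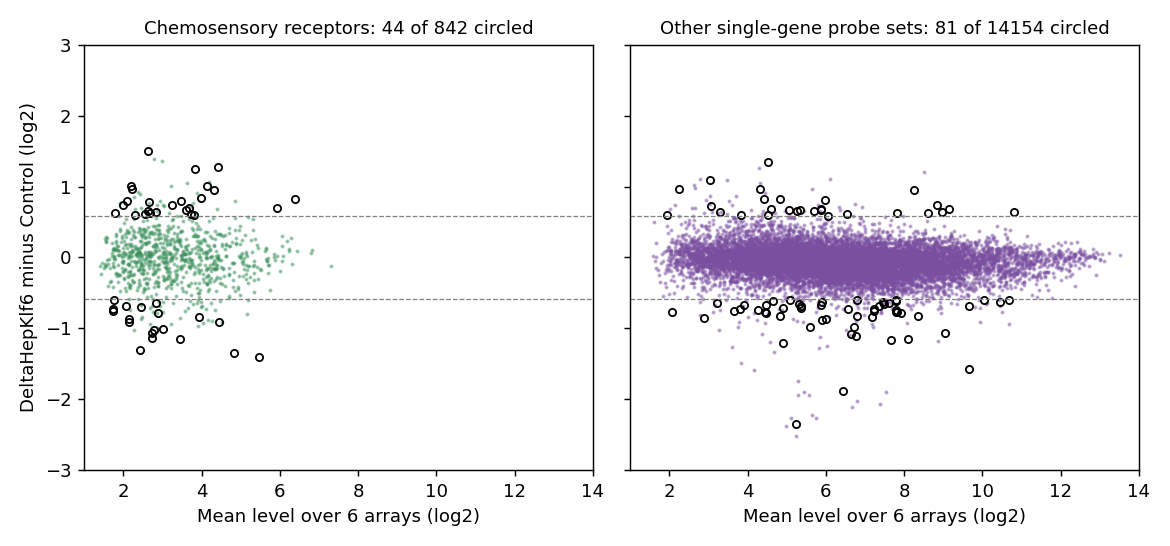
Difference of means, DeltaHepKlf6 minus Control (log2, y axis), against the mean level over the 6 arrays (log2, x axis) for the receptors (left) and the other single-gene probe sets (right); dashed lines mark 1.5-fold and circles the sets past it without overlap. Circles mark 44 of 842 receptors and 81 of 14154 other sets.

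The values behind these differences show what the criterion accepts. Vmn1r52, a vomeronasal receptor, was 4.35, 3.14 and 2.63 in DeltaHepKlf6 1, 2 and 3 and 1.59, 2.04 and 1.99 in Control 1, 2 and 3. It had the largest difference of the members, 1.5 ± 0.44 (SE), and DeltaHepKlf6 1 stood far above the other arrays of its own group. Olfr1442 was 5.01, 4.85 and 5.34 in DeltaHepKlf6 and 4.21, 3.58 and 3.59 in Control. Vmn1r27 was 4.66, 4.53 and 4.21 in DeltaHepKlf6 and 2.52, 3.45 and 3.68 in Control. The difference of means was 1.27 ± 0.23 (SE) for Olfr1442, and the means of Vmn1r27 were 4.47 ± 0.23 in DeltaHepKlf6 and 3.22 ± 0.61 in Control (SD, n = 3 each). The values nearest to the other group were 4.85 in DeltaHepKlf6 and 4.21 in Control for Olfr1442, and 4.21 in DeltaHepKlf6 and 3.68 in Control for Vmn1r27. Olfr635 was the brightest of the 44, with 6.60, 6.61 and 7.16 in DeltaHepKlf6 and 6.15, 6.08 and 5.68 in Control, a difference of 0.82 ± 0.22 (SE). Further members on the higher side were Olfr1008, at 2.92 to 3.11 in DeltaHepKlf6 and 2.23 to 2.52 in Control, Olfr815, Olfr459, Olfr118, Olfr1123 and Olfr918, with differences between 0.63 and 1.01. For each of these 10 receptors limma's adjusted p was 0.998.

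On the lower side Olfr283 had the smallest unadjusted p-value of the members in limma, 0.000456, with an adjusted p of 0.998. It was 2.32, 2.66 and 2.54 in DeltaHepKlf6 1, 2 and 3 and 3.64, 3.41 and 3.49 in Control 1, 2 and 3, a difference of -1.01 ± 0.15 (SE). Olfr523 was 3.85, 4.22 and 3.92 in DeltaHepKlf6 and 4.97, 4.76 and 4.99 in Control. In both genes the spread within each group was small beside the distance between the groups. Olfr1394 had the largest negative difference, -1.41 ± 0.35 (SE), with 4.60, 5.50 and 4.19 in DeltaHepKlf6 and 6.02, 6.03 and 6.47 in Control. The probe set of its neighbour Olfr1395 had a difference of 0.17. Olfr365, at 1.47, 2.56 and 1.28 in DeltaHepKlf6 and 2.80, 3.67 and 2.77 in Control, had a mean of 2.42 over the 6 arrays, below the receptor median. Differences of Olfr609, Olfr530, Olfr433, Olfr906, Olfr1100 and Olfr1454 lay between -1.15 and -0.75, with an adjusted p of 0.998 in limma for each.

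**Figure D4:**
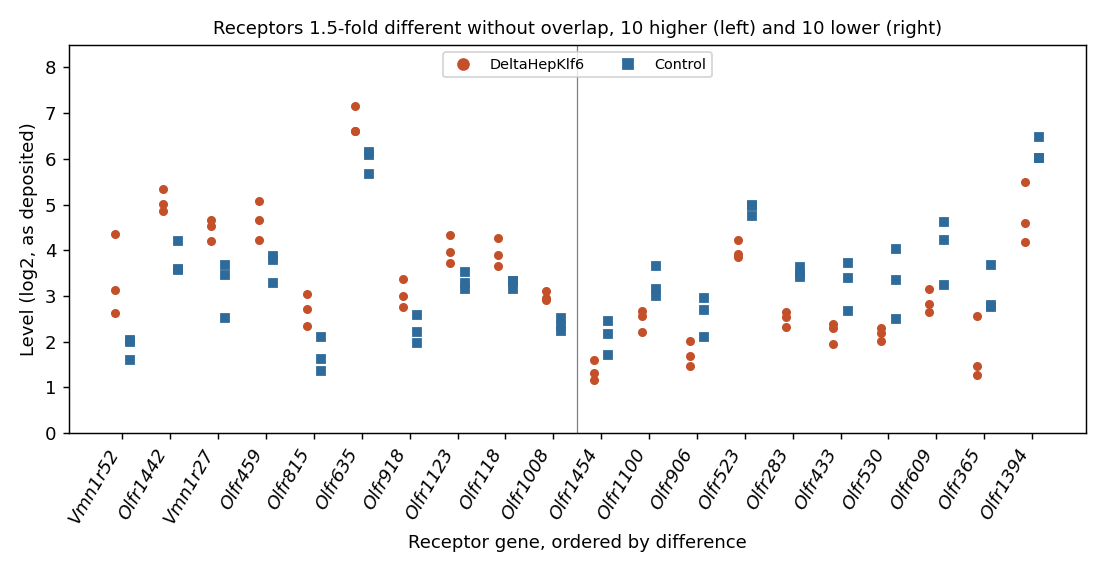
Levels (log2, y axis) of 20 receptors at least 1.5-fold different without overlap (x axis, ordered by difference, 10 higher and 10 lower in DeltaHepKlf6) in 3 DeltaHepKlf6 mice (circles, left) and 3 Control mice (squares, right). Olfr635 and Olfr1394 are the highest of the 20, and the others lie at or below 5.34 in every array.

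Receptor values spread more between mice of 1 group than values of other genes at the same level. The within-group standard deviation of a receptor had a median of 0.38, against 0.20 for the other single-gene sets. For sets with a mean level of 2 to 3 it was 0.39 for 300 receptors and 0.20 for 491 other sets, and for sets at 4 to 5 it was 0.41 for 145 receptors and 0.17 for 2337 other sets. In these ranges the share past 1.5-fold without overlap was also higher for receptors than for the other single-gene sets. At a level of 2 to 3 it was 6.67% of receptors and 0.611% of other single-gene sets, and at 4 to 5 it was 3.45% of receptors and 0.599% of the others. Below a level of 2 the share was 6.41% of 78 receptors and 2.94% of 34 other single-gene sets, where it stands for 1 set. Probe sets without a gene name here had within-group standard deviations of 0.58 and 0.59 at levels of 2 to 3 and 4 to 5, with shares of 8.13% and 5.85%. Below 2 and at 5 to 6 these unnamed sets had standard deviations of 0.40 and 0.51, with shares of 5.39% and 2.58%. Receptors there had smaller standard deviations, 0.28 and 0.39. Their shares of 6.41% and 3.45% stand for 5 of 78 and 2 of 58 receptors. These are too few to rank against the unnamed sets, and whether share follows spread was not tested. The sources used here do not give the number of probes behind a set.

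**Figure D5:**
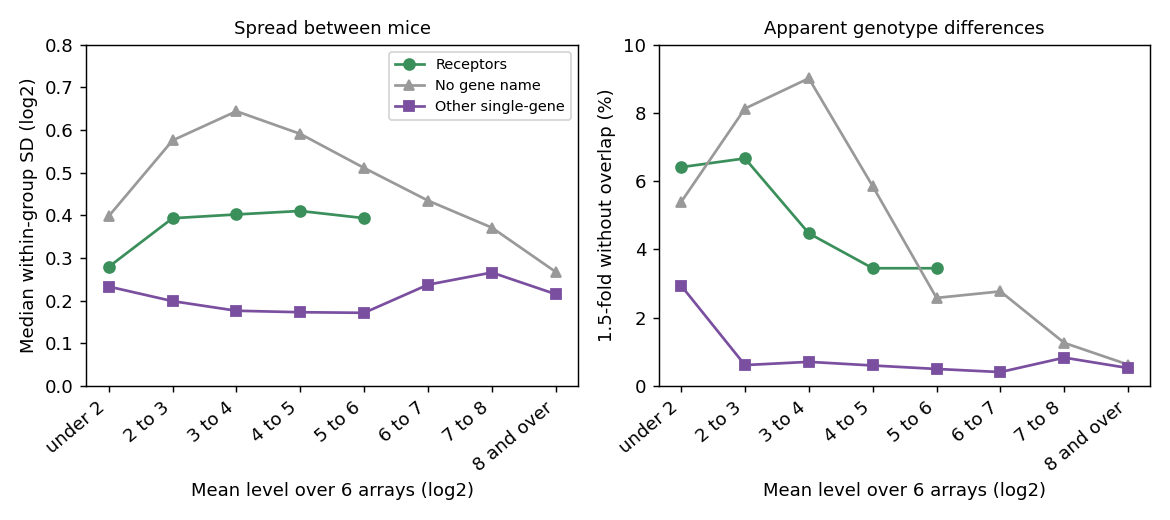
Median within-group standard deviation (log2, left y axis) and share past 1.5-fold without overlap (percent, right y axis) by range of mean level (log2, x axis) for receptors, unnamed and other single-gene probe sets; ranges with fewer than 20 sets are not drawn. At a level of 2 to 3 the receptors stand at 0.39 and 6.67%, the other single-gene sets at 0.20 and 0.611%.

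The widest spreads came from single arrays. Olfr539 was 5.25, 1.34 and 1.95 in DeltaHepKlf6 1, 2 and 3 and 2.18, 3.00 and 2.87 in Control 1, 2 and 3. Olfr1496 was 1.67, 2.38 and 2.15 in DeltaHepKlf6 and 5.19, 1.95 and 1.58 in Control. Olfr1286 reached 4.80 in DeltaHepKlf6 3 and Olfr385 4.82 in DeltaHepKlf6 2, while Olfr402 and Vmn1r53 varied in both groups. Each of the first 4 had 1 array far above the other 5, and the array was a different one each time. An array stood at least 2-fold above the next highest in 31 receptors or 3.68%, against 0.572% of the other single-gene sets. The array was DeltaHepKlf6 1, 2 and 3 in 6, 8 and 3 of the 31 receptors, and Control 1, 2 and 3 in 7, 1 and 6. Olfr446, the 1 gene with 2 probe sets, had means of 4.10 and 2.46 in them, with differences of 0.01 and 0.23.

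Receptors that have been described in mouse tissues beyond nose and tongue lay within the range of the other members. Olfr734, described as a receptor of the hormone asprosin in liver, was 3.96, 4.59 and 4.30 in DeltaHepKlf6 1, 2 and 3 and 4.71, 4.27 and 4.94 in Control 1, 2 and 3, with overlap. Olfr558, known from blood vessels, was 4.04, 3.41 and 4.75 in DeltaHepKlf6 and 4.67, 5.47 and 4.79 in Control, a difference of -0.91 ± 0.39 (SE) with overlap (limma adjusted p = 0.998). Olfr16, known from sperm, had 3.67 ± 0.66 in DeltaHepKlf6 and 4.10 ± 0.56 in Control (SD, n = 3 each). Taar1, the receptor of trace amines in the brain, had 4.42 ± 0.46 in DeltaHepKlf6 and 4.56 ± 0.08 in Control (SD, n = 3 each). The largest difference among these receptors was that of Olfr15, known from pancreatic islets, at 3.67, 4.60 and 2.19 in DeltaHepKlf6 1, 2 and 3 and 1.81, 2.60 and 1.90 in Control 1, 2 and 3. It was 1.38 ± 0.61 (SE), with overlap (limma adjusted p = 0.998). Olfr691, Tas2r108 and Tas2r143 had means over the 6 arrays of 2.94, 2.53 and 4.03. Each of these 8 was below the median of the other single-gene sets on all 6 arrays.

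The partners of the receptors in signalling lay mostly in the upper part of the receptors' range. In all gene lists a gene counted as measured where a probe set names it alone, and the brightest such set was taken. Of the list of olfactory neuron genes 15 of 17 were measured, with a median of 4.76 against 3.13 for the receptors. All 15 were above the receptor median, and 12 were at or below 5.33, the 95th percentile of the receptor means. Omp, the marker protein of mature olfactory neurons, was 3.68, 4.05 and 4.01 in DeltaHepKlf6 1, 2 and 3 and 4.5, 4.15 and 4.21 in Control 1, 2 and 3, with no overlap and a difference of -0.37. The channel subunit Cnga2 had a mean over the 6 arrays of 3.43, Gnal one of 4.92 and Adcy3 one of 4.85. Ric8b, a chaperone of G protein subunits that other cells use too, had the highest mean of the list, 7.13. Lhx2, with 6.08, and Cngb1, with 5.70, were also above 5.33. The taste list had 6 of 11 genes measured, with a median of 4.16, 5 at or below 5.33 and Trpm5 at a mean of 4.62. The vomeronasal list had 4 of 7 measured, with a median of 5.3, 2 at or below 5.33 and the broadly expressed Gnai2 at 8.30. Limma called 0 genes in each of these 3 lists, and 0 of their genes had an unadjusted p under 0.05.

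Set beside the receptors, genes that liver is known to use were far above their range. Hepatocyte markers were measured for 8 of 12 genes, with means from 10.58 for Hnf4a to 13.04 for Ttr, and all 8 exceeded every receptor. Other genes not expected in liver, from retina, testis, muscle, brain and other tissues, were measured for 35 of 41. Their median of 4.70 was above that of the receptors, and 26 of the 35 lay at or below 5.33. Of these 35 tissue-restricted genes limma called 0, and 2 had an unadjusted p under 0.05, where the background over all probe sets was 3.21%. Array levels of genes not expected in liver thus differed between the lists, with medians of 3.13 for the receptors and 4.70 for these genes. They are levels of probe sets and not amounts of transcript.

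As a reference for the rest of the arrays, the receptors placed 64.1% of the other single-gene sets above their 95th percentile and 95.5% above their median. Taken array by array, 7698 of 14154 sets or 54.4% were above the 95th percentile of the receptors on all 6 arrays, and 4664 on none. Sets above it on all 3 DeltaHepKlf6 and no Control array numbered 9, and those above it on all 3 Control and no DeltaHepKlf6 array numbered 7. Of the 81 other single-gene sets past 1.5-fold without overlap, 32 or 39.5% had a mean at or below 5.33. That is near the share over all other single-gene sets, of which 64.1% were above 5.33. Chrm2, a muscarinic acetylcholine receptor, was 5.10, 5.30 and 5.20 in DeltaHepKlf6 and 3.54, 3.86 and 4.17 in Control, and its mean of 4.53 was above 86.0% of the receptors. Twist1 had a mean over the 6 arrays of 5.05, and the 2 probe sets of Akr1b10 had 3.64 and 3.22, all below the 95th percentile of the receptor means. The mean of Zcchc13, 5.26, was below it too. Array by array, Twist1 was 5.49 and 5.43 in DeltaHepKlf6 2 and 3, above the receptors' 95th percentile of 5.47 and 5.38 there. On the remaining arrays Twist1 was below that percentile. Zcchc13 was 5.51, 5.55 and 5.69 in DeltaHepKlf6 1, 2 and 3, above the receptors' 95th percentile of 5.50, 5.47 and 5.38 on those arrays. In Control 1, 2 and 3 it was 4.74, 4.87 and 5.18, below their 5.50, 5.56 and 5.42, so it is 1 of the 9 sets counted above. Klf6 itself was 5.93, 5.43 and 5.45 in DeltaHepKlf6 and 6.80, 6.09 and 5.88 in Control, and 98.0% of the receptors had a lower mean. Cd74, which chaperones MHC class II molecules, had a mean of 6.77, and Herpud1, a gene of protein degradation at the endoplasmic reticulum, one of 10.44, above all receptors.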

How the data were processed

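Liver RNA of 3 DeltaHepKlf6 and 3 Control mice was measured on Affymetrix mouse exon arrays, and groups were taken from the sample titles. The authors deposited log2 values with 2 decimals for 23332 probe sets. The submitters' processing notes name RMA, limma and Affymetrix Expression Console, with no version or role for any of them. The log2 scale was read from the values, 0.65 to 14.35. The sources used here do not give the probe sets' genome build, and 0 sample columns were left unused. Values are not read counts, so the number of arrays limits the precision, and no detection p-values were used.

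Genes were named from the platform annotation, and 840 of the 842 receptor sets matched the RefSeq table of GRCm38.p6 by gene identifier, with 0 changed symbols. The fit was lmFit and eBayes in limma 3.58.1 (R 4.3.3) on all 23332 sets, with no covariate or filter and Benjamini-Hochberg adjustment over all sets, and it was tested on simulated data. Limma's p-values set the group difference against the spread between mice of a group, moderated toward a value shared by all probe sets. A positive log2 difference means higher in DeltaHepKlf6, and its standard error is the fit's. Counts, percentiles and spreads were computed in Python 3.11.15 with pandas 2.3.3, and plots in matplotlib 3.10.9. A difference counted as 1.5-fold at 0.585 on the log2 scale.

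Members, lists and the choice of alternatives were made with earlier results of these data known. Genes named are the 12 brightest members, up to 10 per direction by unadjusted p among those 1.5-fold different without overlap, the 6 with the widest within-group spread, the ends of each family, a list of receptors known from other tissues and genes of the fixed lists. Olfr1412, Olfr484, Olfr493, Taar5, Olfr1395, Omp, Adcy3, Cnga2, Hnf4a and the genes nearest to the 1.5-fold limit were named after their values were seen. Of the known receptors, Olfr78, Olfr544 and Olfr1393 were not analysed here. Alternatives were other normalizations, variance models, filters, limits, member rules, a replicate block and each array left out.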

Additional observations from a re-analysis of the deposited data

How the results depend on the processing

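Limma called 0 receptors under each alternative that was run. At an unadjusted p under 0.05 limma counted 51 receptors as reported (750 of all 23332 sets). It counted 39 with an intensity trend and robust hyperparameters (703) and 71 with array weights (1117). With 1 array left out the counts were 53 to 65 for receptors and 674 to 1797 for all sets. The 1797 came without DeltaHepKlf6 2, where limma counted 59 of 842 receptors. The receptors' share was then below that of all sets, and it was above it with any other array left out. The replicate numbers were taken only as numbers, because they are not stated to pair mice. Over all sets the deviations of same-numbered arrays correlated with -0.13, -0.17 and 0.21. Those of differently numbered arrays of the 2 groups correlated with -0.28 to 0.34. With the replicate number as a block the count was 64 (884 of all sets), with 0 called. Without the dimmest 25% of probe sets, which left 205 of 842 receptors, 12 had an unadjusted p under 0.05 (444 of all 17499 sets left) and 8 were 1.5-fold different without overlap. Without the dimmest 50%, which left 32, both counts were 2 (233 of all 11666 sets had such a p). The 44 receptors past 1.5-fold without overlap became 13 at 2-fold and 75 at any fold, and 69 to 84 with 1 array left out, where 2 against 3 values separate more easily. The lowest of these counts was without Control 1 and the highest without Control 3, with 73 without DeltaHepKlf6 1 or 2, 82 without DeltaHepKlf6 3 and 78 without Control 2. Quantile normalization gave 38. Over all 23332 sets the count was 500 as reported and 1567 at any fold. For the other settings, the dim filters included, it was taken for receptors only. Whether the receptors' excess holds under them was therefore not tested. None of the 20 named differences of such receptors was called under quantile normalization, with the block or with an array left out. The number of bright members was 0 against the 75th percentile of the other sets, 15 by mean level and 5 to 7 with 1 array left out. The share of other single-gene sets above the receptors was 74.3% at their 90th and 44.7% at their 99th percentile. The median difference of the receptors lay between -0.02 and 0.02 with 1 array left out and was -0.03 with quantile normalization, so it has no settled sign. With 6 arrays and no detection values, a dim transcript cannot be told from none.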
